A study of Mus musculus with 6 samples.

Results

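The MHC class I presentation genes are 10 genes that build, load or switch on the class I molecule, namely *H2-K1*, *H2-D1*, *B2m*, *Tap1*, *Tap2*, *Tapbp*, *Psmb8*, *Psmb9*, *Nlrc5* and *Erap1*. They were chosen by symbol, each symbol matched 1 row of the count table, and they make up 10 of its 56980 genes. All 10 were abundant enough to be among the 15190 genes tested. Between TranspCtrl and TranspExer, the cells kept the same order of class I transcripts, and no member changed by 2-fold or more. Within that order, *H2-D1* and *Tap2* were higher in TranspExer, 1.24-fold and 1.17-fold, and *Nlrc5* was lower, 0.715-fold, by the adjusted test. *H2-D1* passed in 4 of 12 alternative settings, *Tap2* in 2 and *Nlrc5* in 9, and the log2 change of *Nlrc5* went from -0.48 to -0.30 without 1 control library that stood apart. *H2-K1* and *B2m* differed by less than the spread between samples.

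RNA-Seq was run on BM MSCs, the adherent stromal cells grown from flushed bone marrow, of female mice that had undergone OVX, the removal of both ovaries, at 8 weeks of age. All mice were given antibiotics and then fecal microbiota transplantation (FMT) by gavage for 8 weeks, from sedentary donors in TranspCtrl (n = 3 samples) and from exercised donors in TranspExer (n = 3 samples). The donors were themselves osteoporotic mice, the marrow was cultured for 7 days with repeated washing, and no sorting step was described. The labels do not say that the samples of a group came from separate animals, so the p-values measure the spread between these samples, and the mouse strain and any pooling of animals are not given in the sources used here.

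Almost every nucleated cell shows peptides from its own proteins at the surface in a class I molecule, a heavy chain paired with β2-microglobulin. Peptides are cut by the proteasome, pumped into the endoplasmic reticulum by the TAP transporter, trimmed there, and fitted into the groove of the heavy chain with the help of tapasin. CD8+ T cells read the peptide and natural killer cells read the heavy chain, and interferons raise many genes of the route, with NLRC5 as the transactivator that docks on their promoters. Marrow stromal cells are known for class I on their surface and for little class II unless exposed to interferon-γ.

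In the GENCODE M21 annotation of the GRCm38 mouse build, 7 members lie within the MHC on chromosome 17. *Tapbp* spans chr17:33915899-33929292 on the plus strand, *H2-K1* chr17:33996017-34000347 on the minus strand and *H2-D1* chr17:35262730-35267499 on the plus strand. *Psmb9* (chr17:34181987-34187764, minus strand), *Tap1* (chr17:34187553-34197225, plus strand), *Psmb8* (chr17:34197721-34201454, plus strand) and *Tap2* (chr17:34203527-34216321, plus strand) form 1 compact block. *Psmb9* and *Tap1* start back to back, with 225 bases between their RefSeq starts. *B2m* is on chromosome 2 (chr2:122147686-122153083, plus strand), *Nlrc5* on chromosome 8 (chr8:94434356-94527272, plus strand) and *Erap1* on chromosome 13 (chr13:74639568-74693201, plus strand).

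Class I promoters are known for an upstream κB and interferon-response (ISRE) element, followed by an SXY module of which the X2 box resembles a cAMP response element (CRE) and the Y box is an inverted CCAAT, the module to which NLRC5 is recruited. These stretches are shown for *H2-K1*, *H2-D1* and *B2m*, the most abundant members, and no binding to them was measured. Sequences are from RefSeq (GRCm38.p6), 5′ to 3′ on the strand of the gene, and capitals mark the matched letters. Distances are counted from the RefSeq start, which for *H2-D1* lies 364 bases after the GENCODE start, so that its stretches fall inside the GENCODE span given above. The κB element GGGATTCCC and, on the opposite strand, the ISRE core AANNGAAAC lay 110 to 83 bases before the *H2-K1* start (chr17:34000430-34000457, minus strand) and 170 to 143 bases before the *H2-D1* start (chr17:35262924-35262951, plus strand).
H2-K1 κB to ISRE: GGGATTCCCcatctccacaGTTTCACTT
H2-D1 κB to ISRE: GGGATTCCCcatctcctcaGTTTCACTT

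The X2 or CRE core TGACG and the inverted CCAAT, read as ATTGG, were found nearer the start. They spanned chr17:34000359-34000388 (minus strand) for *H2-K1*, chr17:35262993-35263022 (plus strand) for *H2-D1* and chr2:122147609-122147638 (plus strand) for *B2m*.
H2-K1 X2 to Y: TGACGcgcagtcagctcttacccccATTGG
H2-D1 X2 to Y: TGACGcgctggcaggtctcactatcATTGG
B2m X2 to Y: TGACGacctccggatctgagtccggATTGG

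The κB to ISRE stretches of *H2-K1* and *H2-D1* were identical at 27 of 28 bases, and their X2 to Y stretches at 23 of 30 bases. The *B2m* stretch was identical to that of *H2-K1* at 13 of 30 bases and to that of *H2-D1* at 12, the motif letters included. TGACG followed after 20 bases by ATTGG occurred in 25 of 27025 promoters of 250 bases, or 0.0925%, and 3 of these were the members shown, while *H2-M3*, a class Ib gene, was another. This spacing was chosen after the sequences had been seen.

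RefSeq promoter sequence was matched for 8 members, and *Nlrc5* and *Tap2* had no entry. For *H2-D1*, *Psmb8*, *Psmb9*, *Tapbp* and *Erap1* the searched window lies inside the longer GENCODE span. Searched on both strands over 250 bases before the start, TGACG was found for 5 of the 8 (*B2m*, *H2-D1*, *H2-K1*, *Psmb9* and *Tap1*) and in 17.8% of all promoters. CCAAT was found for these 5 and *Tapbp*, and in 34.5% of all promoters. The windows of *Psmb9* and *Tap1* overlap on opposite strands. The TGACG of both genes is the same bases, as is their CCAAT, so each of these sites is counted for both genes. The ISRE core was found for *H2-K1* and *H2-D1* and in 4.99% of all promoters, and GGGATTCCC for the same pair and in 0.315%. TTCNNNGAA, the interferon-γ-activated sequence (GAS), was found for *Psmb8* and in 7.14% of all promoters. None of these motifs contains another, and a match is a match of letters, with no binding measured.

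The total count per sample was between 17647638 and 21319166, and 3 counts corresponded to 0.139 to 0.174 CPM (counts scaled to a common library size with TMM factors), far under the lowest member value of 45.1 CPM. The members held 0.711% to 0.796% of all counts in a sample, and *H2-K1*, *H2-D1* and *B2m* together held 82.4% to 86% of the members' counts. TranspCtrl replicate 1 stood apart, with a root mean square log2 distance of 0.489 to its nearest sample of the group, against 0.3 to 0.356 for the other 5 samples. Relative to the other TranspCtrl samples, its median log2 difference was 0.213 for the shortest quartile of genes and -0.137 for the longest. For this reason, results that this sample moved are given without it too. With all samples, the median log2 fold change of TranspExer over TranspCtrl was -0.108 for the shortest quartile and 0.027 for the longest. The part of gene length in the results on single genes was not tested.

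The marker lists were checked against the label of the cells. Stromal markers were abundant, with a summed level of 12093 to 19782 CPM over 11 genes in TranspCtrl and 13007 to 14245 CPM in TranspExer, and 3 of the 11 were higher and 7 lower in TranspExer. Hematopoietic markers were present too, and the pan-leukocyte gene *Ptprc* was at 281 CPM in TranspCtrl and 294 CPM in TranspExer. The summed level of 8 macrophage markers was 8266 to 12520 CPM in TranspCtrl and 6354 to 6808 CPM in TranspExer, with 1 higher and 2 lower by the test. *Lyz2* carried that fall, and the other 7 summed to 3261 to 3418 CPM in TranspCtrl and to 3572 to 3758 CPM in TranspExer. *Cd68* carried the rise of these 7, from a mean of 479 CPM in TranspCtrl to 823 CPM in TranspExer. *Mrc1* fell from 683 to 544 CPM, and the rest of the 7 did not pass. Lower in TranspExer were the sums of 7 B and plasma cell markers (1716 to 2051 CPM against 556 to 589 CPM, 6 lower) and of 5 osteoclast markers (354 to 480 CPM against 124 to 134 CPM, 5 lower). Higher were the sums of 6 endothelial markers (180 to 225 CPM against 584 to 640 CPM, 6 higher), of 8 neutrophil markers (3159 to 4230 CPM against 5458 to 5677 CPM, 3 higher and 1 lower) and of 6 dendritic markers (74.3 to 86.6 CPM against 123 to 132 CPM, 1 higher, *Itgax*, which made up most of that sum). The neutrophil markers that rose were *Elane*, *Mpo* and *Ngp*, while *Ly6g* fell and *S100a8*, *S100a9*, *Camp* and *Ltf* did not pass. The sum of 8 T and NK markers was 66.2 to 68.1 CPM against 80.6 to 85.1 CPM, with 2 higher and 2 lower, and without the 2 that were higher, *Cd4* and *Nkg7*, it was 18.4 to 19.8 CPM against 10.5 to 11.5 CPM. Most of that difference was *Gzmb*, which fell from a mean of 10.4 to 4.19 CPM. *Cd3d* was the other marker that was lower (1.27 to 0.35 CPM), and the rest did not pass. These partial sums were added after the values had been seen. Erythroid markers were near 0, with a sum over 6 genes of at most 0.894 CPM in every sample and 3 of the 6 at or under 3 counts throughout. Class I genes are known to be expressed by most of these cell types, and in RNA from a mixed culture fewer cells of a type and less RNA per cell cannot be told apart. The part of the marker shifts in the results on the members was not tested.

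The first question was how the route is set in these cells, irrespective of the donors. Per transcript length (TPM, the share of a transcript among all transcripts of a sample), *B2m* led with 7059 ± 146 TPM in TranspCtrl (SD, n = 3) and 6824 ± 317 TPM in TranspExer, which ranked it 12th and 11th among all genes. *H2-D1* followed with 2216 ± 122 TPM and 2695 ± 181 TPM, and *H2-K1* with 1782 ± 173 TPM and 1761 ± 87.8 TPM. The light chain and both classical heavy chains were thus among the most abundant transcripts of the culture.

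*Tapbp*, which encodes the peptide-loading chaperone tapasin, came next at 368 ± 120 TPM in TranspCtrl and 498 ± 11.9 TPM in TranspExer. The immunoproteasome and transporter genes stood lower. *Psmb8* was at 146 ± 38.3 TPM and 127 ± 10.8 TPM, *Tap1* at 111 ± 6.44 TPM and 103 ± 6.78 TPM, and *Psmb9* at 90.7 ± 11.9 TPM and 73.9 ± 4.15 TPM in TranspCtrl and TranspExer.

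At the lower end were *Tap2* (55.5 ± 0.324 TPM and 63.4 ± 2.97 TPM), the trimming peptidase gene *Erap1* (47.8 ± 0.287 TPM and 43.5 ± 1.67 TPM) and the transactivator gene *Nlrc5* (25.4 ± 5.22 TPM and 17.8 ± 1.43 TPM). The order of the 10 group means was the same in both groups. Neighbors in the order overlapped only for *Psmb8* and *Tap1* in TranspCtrl, whose ranges were 116 to 189 TPM and 106 to 119 TPM, and all other neighbors were separated in each group.

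**Figure D1:**
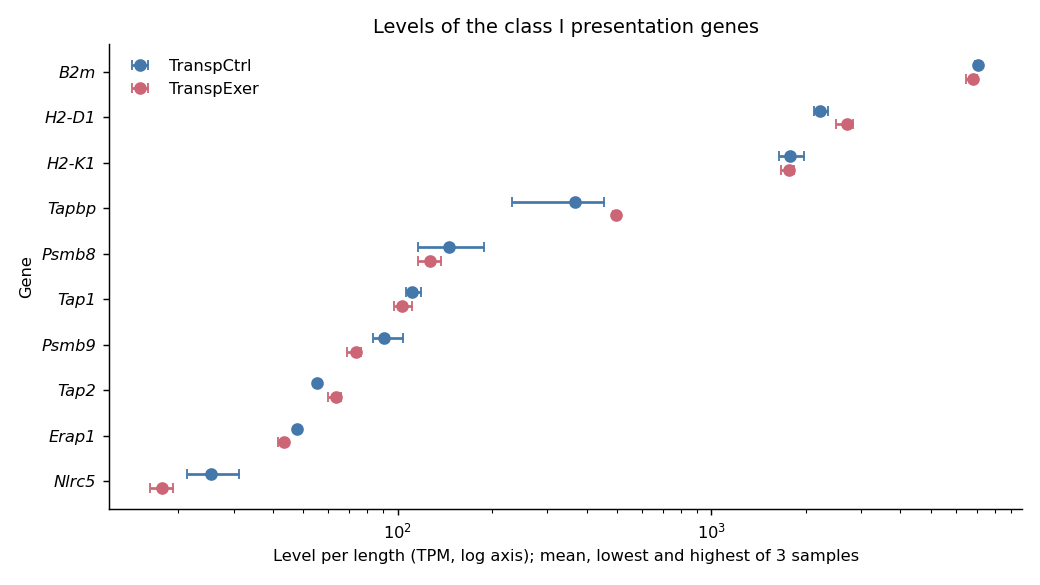
Level per transcript length of the 10 members (TPM, log axis), with a point for the mean of the 3 samples of each group and a bar from the lowest to the highest sample. *B2m*, *H2-D1* and *H2-K1* lie at 1646 TPM or more in every sample, *Tapbp* between 231 and 508 TPM, and *Nlrc5* lowest in both groups.

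The comparison of TranspExer with TranspCtrl asked whether the microbiota of exercised donors was followed by a different class I expression in the recipients' BM MSCs. With the thresholds of the study (corrected p below 0.05 together with a change of 2-fold or more), 0 of 10 members were differentially expressed by edgeR and 0 by DESeq2, while 8.78% of all tested genes passed. At an unadjusted p under 0.05 there were 4 of 10 members, beside 44.4% of all genes, and 0 of these reached 2-fold. The 95% confidence interval of the fold change lay inside 2-fold for all 10 members, so for each of them a change of 2-fold in either direction was outside the interval. By the adjusted p-value alone, 2 members were higher in TranspExer, where 16.6% of all genes were, and 1 was lower, where 15.5% of all genes were. The TranspCtrl and TranspExer samples did not overlap for 6 members, 3 higher and 3 lower, and for 52.4% of all genes. The median log2 fold change was -0.05 over the members and -0.02 over all genes, and the median size of the change was 0.198 and 0.295.

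Leaving out TranspCtrl replicate 1, 3 members were higher and 1 lower by the adjusted p-value, where 22.1% of all genes were higher and 19.6% lower, and 0 of 10 members passed both thresholds.

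**Figure D2:**
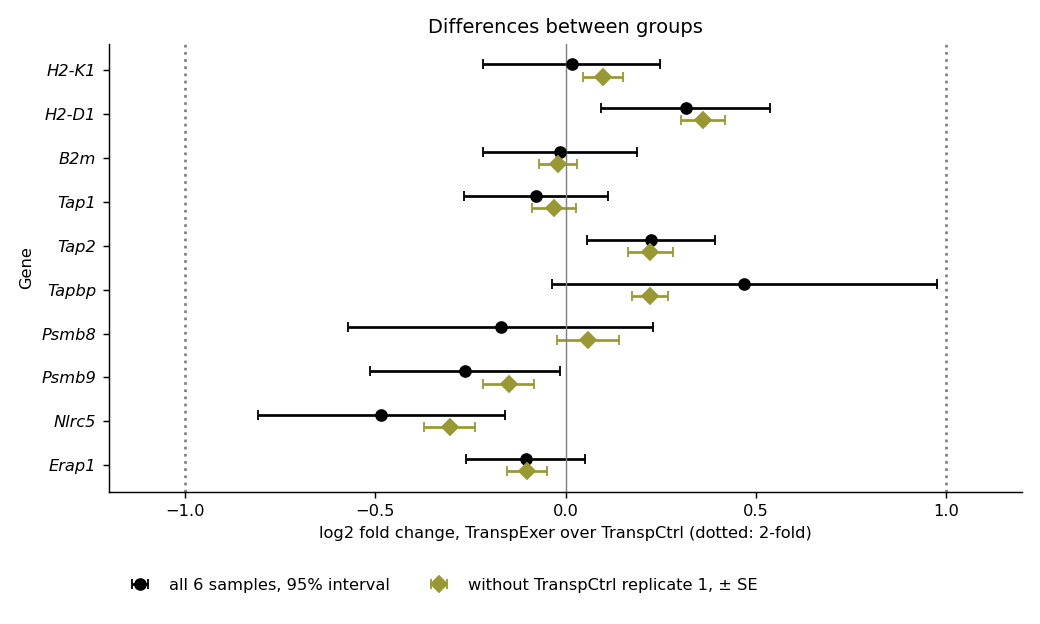
Log2 fold change of each member in TranspExer relative to TranspCtrl, with 95% confidence intervals for all 6 samples (circles) and standard errors without TranspCtrl replicate 1 (diamonds), and dotted lines at 2-fold. All 10 intervals from the 6 samples lie inside the dotted lines, and the circles range from -0.48 (*Nlrc5*) to 0.47 (*Tapbp*).

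The heavy chains came first. *H2-D1* (ENSMUSG00000073411), which encodes the classical heavy chain D, was at 1957, 1787 and 1777 CPM in TranspCtrl replicates 1, 2 and 3 and at 2406, 2373 and 2093 CPM in TranspExer. Every TranspExer sample was above every TranspCtrl sample. The mean rose from 1840 ± 101 CPM to 2291 ± 172 CPM, a log2 fold change of 0.32 (SE 0.10, 95% CI 0.09 to 0.54, adjusted p = 0.0391 by the quasi-likelihood test of edgeR, adjusted after Benjamini and Hochberg). Without TranspCtrl replicate 1 the adjusted p was 0.000264, and when any of the other 5 samples was left out it was between 0.0579 and 0.152 and the call was lost. It was also lost with upper-quartile factors (adjusted p = 0.111), with scaling by library size only (0.12) and with the replicate block (0.0586 by edgeR), which left the direction as it was.

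*H2-K1* (ENSMUSG00000061232), the heavy chain K, was at 1528, 1309 and 1284 CPM in TranspCtrl and at 1441, 1428 and 1298 CPM in TranspExer. The groups overlapped throughout their range. The means were 1374 ± 134 CPM and 1389 ± 79.2 CPM, with a log2 fold change of 0.02 (SE 0.10, 95% CI -0.22 to 0.25, adjusted p = 0.915 by edgeR).

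*B2m* (ENSMUSG00000060802), the light chain without which heavy chains do not reach the surface, was at 2881, 2915 and 2875 CPM in TranspCtrl and at 2984, 2915 and 2679 CPM in TranspExer. TranspExer samples lay above, at and below the narrow range of TranspCtrl. The means were 2890 ± 22 CPM and 2860 ± 160 CPM (log2 fold change -0.02, SE 0.09, 95% CI -0.22 to 0.19, adjusted p = 0.905 by edgeR).

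Since *H2-K1* and *H2-D1* were counted in the same libraries, their ratio within a sample is free of the scaling between libraries. The log2 ratio of *H2-D1* to *H2-K1* counts was 0.357, 0.449 and 0.468 in TranspCtrl and 0.739, 0.732 and 0.69 in TranspExer. It was higher in all 3 TranspExer samples, with TranspCtrl replicate 1 the lowest. The mean rose by 0.296, or 1.23-fold, with an exact two-sided permutation p of 0.1, the smallest that 3 samples against 3 can give, and an adjusted p of 0.16 over the 8 ratios computed. This ratio was added after the values of both genes had been seen.

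The log2 ratio of both heavy chains together to *B2m* was 0.275, 0.087 and 0.091 in TranspCtrl and 0.366, 0.383 and 0.34 in TranspExer. TranspExer was again higher in 3 of 3 samples, and TranspCtrl replicate 1 lay nearest to it. The mean difference was 0.212, or 1.16-fold (exact two-sided permutation p = 0.1, adjusted p = 0.16). The summed counts of *H2-K1*, *H2-D1* and the class Ib *H2* genes had a log2 fold change of 0.17 with adjusted p = 0.226 by edgeR, and of 0.24 with adjusted p = 0.00215 without TranspCtrl replicate 1.

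Part of these genes cannot be told from their relatives by sequence. Of the 50-base stretches of the longest *H2-D1* transcript, 14.3% also occurred in other genes, most often in *H2-Q1*, and of those of *H2-K1* 8.79%, most of them in *H2-D1*. How the reads of such stretches were assigned is not given in the sources used here, and their share in the *H2-D1* difference was not tested. *B2m*, *Psmb8*, *Psmb9*, *Nlrc5* and *Erap1* had no such stretch, and *Tap1*, *Tap2* and *Tapbp* had at most 2%.

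**Figure D3:**
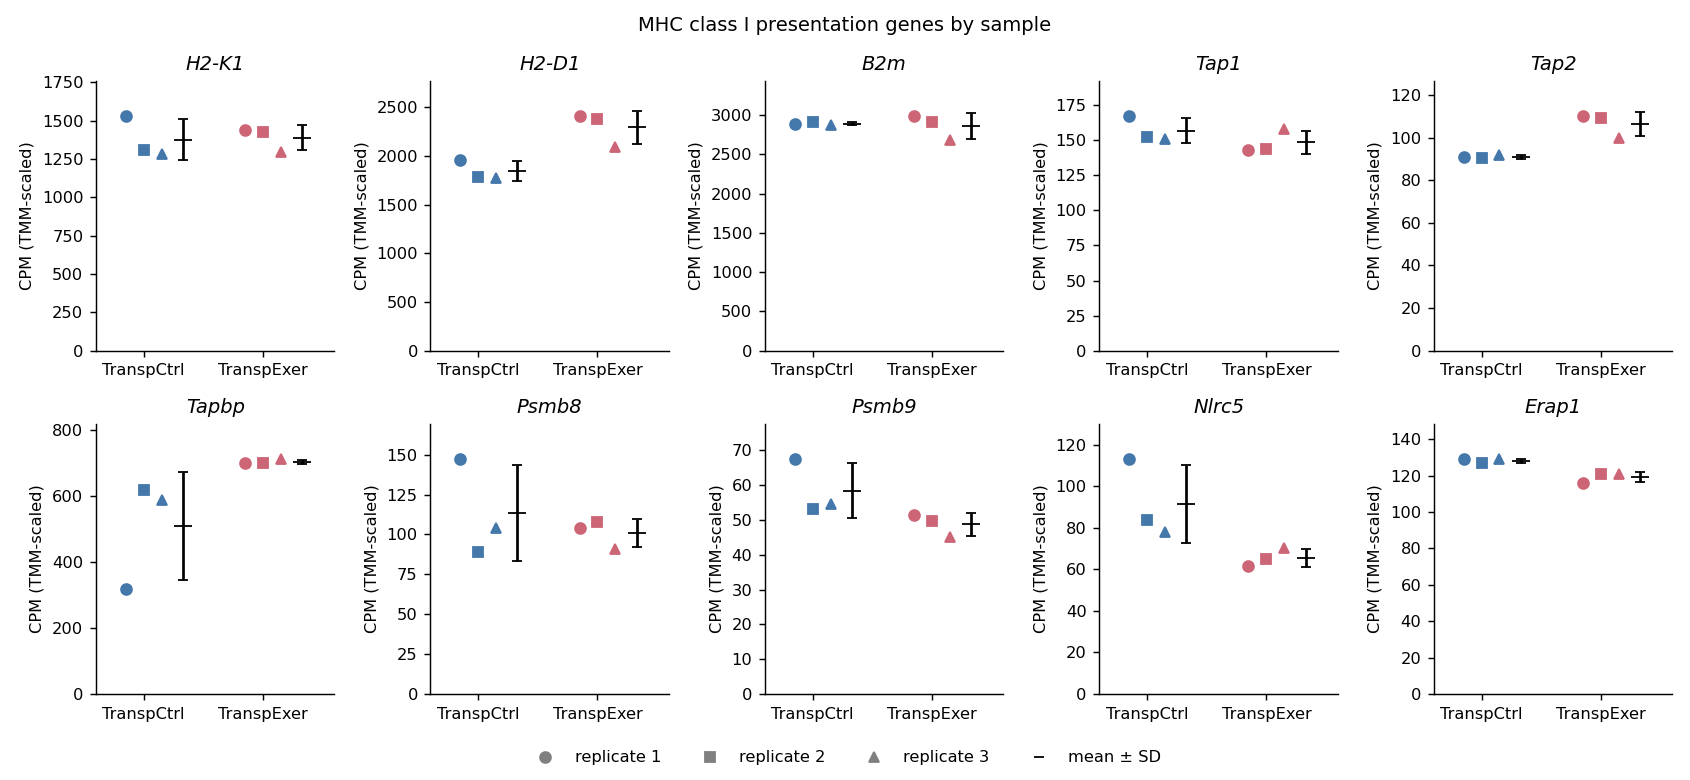
CPM of each member in the 3 TranspCtrl and 3 TranspExer samples, with 1 panel per gene, a symbol per replicate and a bar for mean ± SD. *H2-D1*, *Tap2* and *Tapbp* lie higher in every TranspExer sample, *Nlrc5*, *Psmb9* and *Erap1* lower, and TranspCtrl replicate 1 stands apart for *Tapbp* at 319 CPM and *Psmb8* at 147 CPM.

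Next came transport and loading. *Tap1* and *Tap2* encode the partner chains of the TAP transporter, which works only as a pair. *Tap2* (ENSMUSG00000024339) was at 90.7, 90.3 and 91.9 CPM in TranspCtrl and at 110, 109 and 99.8 CPM in TranspExer. All 3 TranspExer samples were above the closely spaced TranspCtrl samples. The mean rose from 91 ± 0.862 CPM to 106 ± 5.63 CPM (log2 fold change 0.23, SE 0.07, 95% CI 0.06 to 0.39, adjusted p = 0.0473 by edgeR). This call held without TranspCtrl replicate 1, with adjusted p = 0.00921, and was lost when any of the other 5 samples was left out, with adjusted p between 0.0705 and 0.18. It was also lost in every other alternative run except DESeq2, namely upper-quartile factors (0.159), library size only (0.178), no low-count filter (0.144), at least 1 CPM in 3 samples (0.0604) and the replicate block (0.0833 by edgeR), with the same direction.

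*Tap1* (ENSMUSG00000037321) was at 167, 152 and 151 CPM in TranspCtrl and at 143, 144 and 158 CPM in TranspExer. The groups overlapped, with a TranspExer sample above a pair of TranspCtrl samples. The means were 157 ± 9.05 CPM and 148 ± 8.15 CPM (log2 fold change -0.08, SE 0.08, 95% CI -0.27 to 0.11, adjusted p = 0.489 by edgeR), and the log2 fold change was -0.03 without TranspCtrl replicate 1.

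The log2 ratio of *Tap2* to *Tap1* counts was -0.881, -0.753 and -0.715 in TranspCtrl and -0.385, -0.398 and -0.661 in TranspExer. It was higher in 3 of 3 TranspExer samples, by 0.302 or 1.23-fold, with an exact two-sided permutation p of 0.1 and an adjusted p of 0.16, and it too was added after the values had been seen. *Tap1* and *Psmb9* share 212 exonic bases on opposite strands, 3.87% of the exonic bases of *Tap1* and 5.79% of those of *Psmb9*.

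*Tapbp* (ENSMUSG00000024308), for tapasin, was at 319, 616 and 588 CPM in TranspCtrl and at 698, 700 and 710 CPM in TranspExer. TranspExer samples were almost equal and above all TranspCtrl samples, of which replicate 1 was far lower than the others. The means were 508 ± 164 CPM and 703 ± 6.54 CPM, with a log2 fold change of 0.47 (SE 0.22, 95% CI -0.04 to 0.98) that missed the threshold (adjusted p = 0.136 by edgeR). Without TranspCtrl replicate 1 the log2 fold change was 0.22 (SE 0.05) and passed it (adjusted p = 0.00204). *Tapbp* shares 149 exonic bases, 4.11% of its own, with *Zbtb22* on the same strand, a gene with a mean count of 533 against 11810 for *Tapbp*.

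*Erap1* (ENSMUSG00000021583), the endoplasmic reticulum aminopeptidase that trims peptides to length, was at 129, 127 and 129 CPM in TranspCtrl and at 116, 121 and 121 CPM in TranspExer. All TranspExer samples were below all TranspCtrl samples, by a small margin. The means were 128 ± 1.06 CPM and 119 ± 2.61 CPM (log2 fold change -0.10, SE 0.07, 95% CI -0.26 to 0.05, adjusted p = 0.269 by edgeR). *Erap1* overlaps *Cast* on the opposite strand over 834 exonic bases, 11.5% of its own.

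The immunoproteasome genes came next. The subunits encoded by *Psmb8*, *Psmb9* and *Psmb10* take the places of those encoded by *Psmb5*, *Psmb6* and *Psmb7* in the proteasome of interferon-exposed and immune cells. *Psmb8* (ENSMUSG00000024338) was at 147, 88.9 and 104 CPM in TranspCtrl and at 104, 108 and 90.9 CPM in TranspExer. TranspCtrl replicate 1 was high and the other 5 samples were intermixed. The means were 113 ± 30.2 CPM and 101 ± 8.79 CPM, and the log2 fold change was -0.17 (SE 0.17, adjusted p = 0.476 by edgeR) with all samples and 0.06 (SE 0.08, adjusted p = 0.608) without that replicate.

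*Psmb9* (ENSMUSG00000096727) was at 67.4, 53.1 and 54.7 CPM in TranspCtrl and at 51.3, 49.7 and 45.1 CPM in TranspExer. The groups did not overlap, though TranspExer replicate 1 lay close to TranspCtrl replicate 2. The means were 58.4 ± 7.81 CPM and 48.7 ± 3.23 CPM, with a log2 fold change of -0.26 (SE 0.11, 95% CI -0.51 to -0.01) that did not pass after adjustment (adjusted p = 0.0979 by edgeR). Without TranspCtrl replicate 1 it was -0.15 (SE 0.07, adjusted p = 0.0933 by edgeR).

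Of the constitutive subunits, *Psmb5* was at 77 ± 7.33 CPM in TranspCtrl and 82.8 ± 2.14 CPM in TranspExer (adjusted p = 0.381 by edgeR) and *Psmb6* at 71.5 ± 8.94 CPM and 76.3 ± 6.92 CPM (adjusted p = 0.549). *Psmb7* fell from 74.3 ± 16.2 CPM to 52.6 ± 6.99 CPM (log2 fold change -0.50, SE 0.16, adjusted p = 0.0479 by edgeR), with a log2 fold change of -0.31 without TranspCtrl replicate 1 (adjusted p = 0.0171). *Psmb10* was at 69.7 ± 7.03 CPM and 68.1 ± 2.7 CPM (adjusted p = 0.804 by edgeR). *Psmb5* was higher in TranspExer when TranspCtrl replicate 1 was left out (log2 fold change 0.175, adjusted p = 0.034 by edgeR).

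Taken within samples, the log2 ratio of *Psmb9* to *Psmb6* was -0.292 ± 0.116 in TranspCtrl and -0.646 ± 0.05 in TranspExer, lower in 3 of 3 TranspExer samples (exact two-sided permutation p = 0.1, adjusted p = 0.16). The ratio of *Psmb8* to *Psmb5* was 0.531 ± 0.239 and 0.279 ± 0.157, with overlapping groups (exact permutation p = 0.2, adjusted p = 0.267). That of *Psmb10* to *Psmb7* went the other way, from -0.076 ± 0.192 to 0.381 ± 0.198 (exact permutation p = 0.1, adjusted p = 0.16), and it was *Psmb7*, the denominator, that passed the test. With TranspCtrl replicate 1 left out, a setting added after the values had been seen, the differences of these ratios were -0.325 for *Psmb9* to *Psmb6*, -0.116 for *Psmb8* to *Psmb5* and 0.369 for *Psmb10* to *Psmb7*. The mean of the 3 log2 ratios, a summary of immunoproteasome against constitutive subunits, was 0.105, 0.087 and -0.029 in TranspCtrl and -0.05, 0.034 and 0.031 in TranspExer. These values overlapped and differed by -0.049 (exact permutation p = 0.4, adjusted p = 0.4). The difference was -0.024 without TranspCtrl replicate 1.

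**Figure D4:**
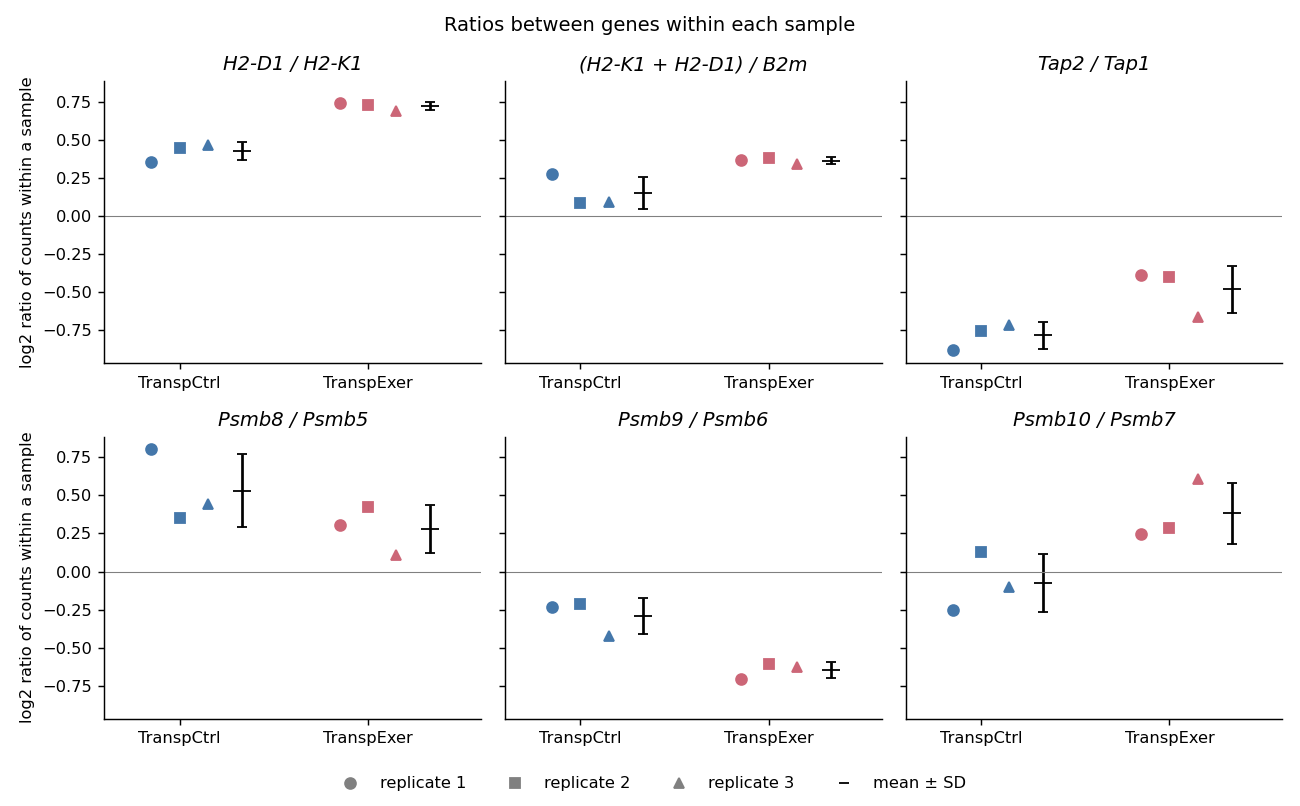
Log2 ratio of the counts of paired genes within each of the 3 TranspCtrl and 3 TranspExer samples, with a symbol per replicate and a bar for mean ± SD. The *H2-D1* to *H2-K1* ratio lies between 0.357 and 0.468 in TranspCtrl and between 0.69 and 0.739 in TranspExer, *Psmb9* to *Psmb6* lies lower in TranspExer, and *Psmb8* to *Psmb5* overlaps between groups.

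The transactivator was the member with the largest fall. *Nlrc5* (ENSMUSG00000074151) was at 113, 84 and 77.8 CPM in TranspCtrl and at 61.5, 64.9 and 70.2 CPM in TranspExer. Every TranspExer sample was below every TranspCtrl sample, and TranspCtrl replicate 1 was the highest. The mean fell from 91.7 ± 18.9 CPM to 65.5 ± 4.37 CPM, a log2 fold change of -0.48 (SE 0.14, 95% CI -0.81 to -0.16, adjusted p = 0.033 by edgeR). Without TranspCtrl replicate 1 it was -0.30 (SE 0.07, adjusted p = 0.00266 by edgeR), a smaller fall with a smaller error. The call was lost when TranspExer replicate 1, 2 or 3 was left out, with adjusted p of 0.12, 0.109 and 0.0771 by edgeR.

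The other members stood on both sides of 0 beside it, with *Psmb9* and *Erap1* lower in every TranspExer sample (not past the adjusted test), *H2-D1*, *Tap2* and *Tapbp* higher in every one, and *H2-K1*, *B2m*, *Tap1* and *Psmb8* overlapping. *Ciita*, the class II counterpart of *Nlrc5*, was at 8.11 ± 1.79 CPM and 6.11 ± 0.956 CPM (log2 fold change -0.41, or -0.21 without TranspCtrl replicate 1, adjusted p = 0.142 and 0.292 by edgeR). *Rfx5*, a subunit of the RFX complex that binds the X box, fell from 21.7 ± 2.01 CPM to 16 ± 1.05 CPM (log2 fold change -0.44, SE 0.11, adjusted p = 0.0179 by edgeR). *Nfya*, a subunit of the NF-Y complex that binds the inverted CCAAT, rose from 70.6 ± 1.26 CPM to 89 ± 1.35 CPM (log2 fold change 0.33, SE 0.07, adjusted p = 0.00797 by edgeR). *Nfya* lost the call without TranspExer replicate 2 (adjusted p = 0.053), and *Rfx5* without TranspCtrl replicate 2 or TranspExer replicate 1 or 2 (0.0529, 0.0582 and 0.0774 by edgeR). Their partner subunits did not pass, with log2 fold changes of -0.12 for *Rfxank*, -0.16 for *Rfxap*, -0.06 for *Nfyb* and 0.21 for *Nfyc* (adjusted p of 0.37, 0.536, 0.643 and 0.144 by edgeR). With 1 sample left out they ranged from -0.152 to -0.087, from -0.306 to -0.011, from -0.121 to -0.005 and from 0.123 to 0.279.

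Profiles over the 6 samples were compared by the root mean square difference of centered log2 CPM. Among genes outside the lists, *Phf5a* (0.0154), *Mrps18b* (0.0221) and *Pepd* (0.0222) were nearest to *H2-K1*, and none of the 3 passed the test between groups (adjusted p of 0.974, 0.924 and 0.927 by edgeR). Nearest to *Nlrc5* were *Zfp935* (0.0365), *Zkscan3* (0.0376) and *Lrrk2* (0.0433), all highest in TranspCtrl replicate 1 and lower in each TranspExer sample than in any TranspCtrl sample. With 6 samples and 15190 genes, such likeness is a description only.

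The rest of the route was examined in 6 lists of 87 genes, of which 74 were tested. By the adjusted p-value 9 were higher and 8 lower in TranspExer, beside 16.6% and 15.5% of all genes, and 2 passed both thresholds, beside 8.78%. The median log2 fold change was -0.04, beside -0.02 over all genes. Leaving out *H2-M9*, whose low counts are given below, 8 of 73 were higher, 8 lower and 1 passed both thresholds. The groups did not overlap for 36 of the 74, beside 52.4% of all genes. Without TranspCtrl replicate 1, 17 of 75 were higher and 14 lower, again beside 22.1% and 19.6% of all genes.

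Of 22 class Ib and class I-like genes, 15 were tested, 2 were higher (*H2-M9* included), 3 were lower and 10 did not pass. *Cd1d1*, which presents lipids to NKT cells, fell from 14.2 ± 2.22 CPM to 8.71 ± 0.896 CPM (log2 fold change -0.70, SE 0.15, adjusted p = 0.00924 by edgeR), and *Mr1*, which presents vitamin B metabolites to MAIT cells, from 24.7 ± 4.13 CPM to 15.8 ± 1.5 CPM (log2 fold change -0.64, SE 0.14, adjusted p = 0.0108). *H2-T10* fell from 7.95 ± 2.13 CPM to 4.66 ± 0.0581 CPM (adjusted p = 0.0221 by edgeR). *Cd1d1* kept its call whichever sample was left out, while *Mr1* lost it without TranspExer replicate 1 (adjusted p = 0.0539 by edgeR) or 3 (0.051), and *H2-T10* without any 1 of the TranspExer samples (0.0764 to 0.0785). *H2-M9* was almost without reads in TranspCtrl, with 2, 2 and 0 counts, and had 18, 16 and 17 counts in TranspExer in replicates 1, 2 and 3. It passed the low-count filter through TranspExer alone, so it had to differ and no test of it is given. Leaving it out, 1 of 14 tested genes of the list was higher and 3 were lower. The other gene that was higher, *H2-T23*, encodes the class Ib molecule Qa-1, a ligand of the CD94/NKG2A receptor, and was at 192 ± 23.3 CPM and 238 ± 5.62 CPM (log2 fold change 0.31, SE 0.10, adjusted p = 0.0465 by edgeR), a call that was lost in every alternative run except DESeq2 and the one without TranspCtrl replicate 1, with adjusted p of 0.0566 to 0.175.

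Of 10 genes of endoplasmic reticulum folding and loading, 1 was lower and 9 did not pass. The exception was *Sec61b*, a subunit of the protein channel into the endoplasmic reticulum, which fell from 74.3 ± 16.6 CPM to 51.7 ± 4.4 CPM (log2 fold change -0.52, SE 0.15, adjusted p = 0.0344 by edgeR). Its log2 fold change was -0.335 without TranspCtrl replicate 1. It lost the call without TranspCtrl replicate 3 (adjusted p = 0.0569 by edgeR) or any 1 of the TranspExer samples (0.0695 to 0.121).

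Of 9 proteasome and activator genes, 1 was higher, 1 was lower (*Psmb7*, above) and 7 did not pass. *Psme3*, the activator of the nuclear proteasome, rose from 110 ± 11.3 CPM to 143 ± 2.81 CPM (log2 fold change 0.39, SE 0.09, adjusted p = 0.0158 by edgeR). Both calls were lost without any 1 of the TranspExer samples, with adjusted p of 0.0544 to 0.0598 for *Psme3* and 0.0742 to 0.165 for *Psmb7*, which also lost it without TranspCtrl replicate 3 (0.0677 by edgeR). *Psme1* and *Psme2*, the interferon-inducible activator subunits, were at 138 ± 6.44 CPM and 161 ± 7.92 CPM (adjusted p = 0.0622) and at 125 ± 22.9 CPM and 113 ± 13.9 CPM (adjusted p = 0.462 by edgeR) in TranspCtrl and TranspExer. *Psme1* passed without TranspCtrl replicate 1 (adjusted p = 0.00348 by edgeR) and with all samples by DESeq2 (adjusted p = 0.0493). Of 8 peptidases of the cytosol and endosome, 1 was lower and 7 did not pass. This was *Ide*, the insulin-degrading enzyme, from 146 ± 3.91 CPM to 111 ± 5.34 CPM (log2 fold change -0.40, SE 0.07, adjusted p = 0.006 by edgeR).

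Of 23 genes of transcription and interferon signaling, 5 were higher, 2 were lower and 16 did not pass. *Irf8*, an interferon regulatory factor of myeloid and B cells, rose from 121 ± 10.4 CPM to 201 ± 8.41 CPM (log2 fold change 0.73, SE 0.09, adjusted p = 0.000862 by edgeR). Of the macrophage, dendritic and neutrophil markers, *Cd68*, *Itgax*, *Elane*, *Mpo* and *Ngp* were higher by the test and *Lyz2*, *Mrc1* and *Ly6g* lower. Of the 7 B and plasma cell markers 6 were lower, and the other tested markers of these lists did not pass. The part of these shifts in the rise of *Irf8* was not tested. *Jak2*, a kinase of the interferon-γ receptor, fell from 103 ± 7.92 CPM to 79.3 ± 2.05 CPM (log2 fold change -0.38, SE 0.08, adjusted p = 0.0107 by edgeR). *Irf8*, *Jak2* and *Ide* kept their calls whichever sample was left out. *Irf2*, *Rela* and *Ifngr1* also rose, by log2 fold changes of 0.62, 0.58 and 0.24 (adjusted p of 0.019, 0.0401 and 0.0469 by edgeR), and each lost the call when any 1 of the TranspExer samples was left out, with adjusted p between 0.0544 and 0.153. *Rela* was at 0.38 without TranspCtrl replicate 1. The call of *Ifngr1* was lost in every alternative run except DESeq2 and the one without TranspCtrl replicate 1, with adjusted p up to 0.153 by edgeR. *Irf1*, an interferon-induced regulatory factor, had a log2 fold change of -0.45 that did not pass (adjusted p = 0.0976 by edgeR), and one of -0.18 without TranspCtrl replicate 1 (adjusted p = 0.0387), and it also passed with no low-count filter (-0.46, adjusted p = 0.0275). The genes *H2-T23*, *Rfxank*, *Rfxap*, *Nfyb*, *Nfyc*, *Irf2*, *Rela*, *Ifngr1* and *Irf1* were named after their values had been seen.

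Of 15 genes for receptors of class I, carried by T and NK cells and by myeloid cells, 9 were tested, 1 was higher and 8 did not pass. *Klra3*, an inhibitory Ly49 receptor, had 17, 10 and 9 counts in TranspCtrl and 25, 22 and 25 counts in TranspExer (log2 fold change 1.11, SE 0.32, adjusted p = 0.0298 by edgeR). With fewer than 26 counts in every sample, this difference rests on few reads, and the call was lost when any sample other than TranspCtrl replicate 1 was left out (adjusted p of 0.0846 to 0.0956 by edgeR).

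**Figure D5:**
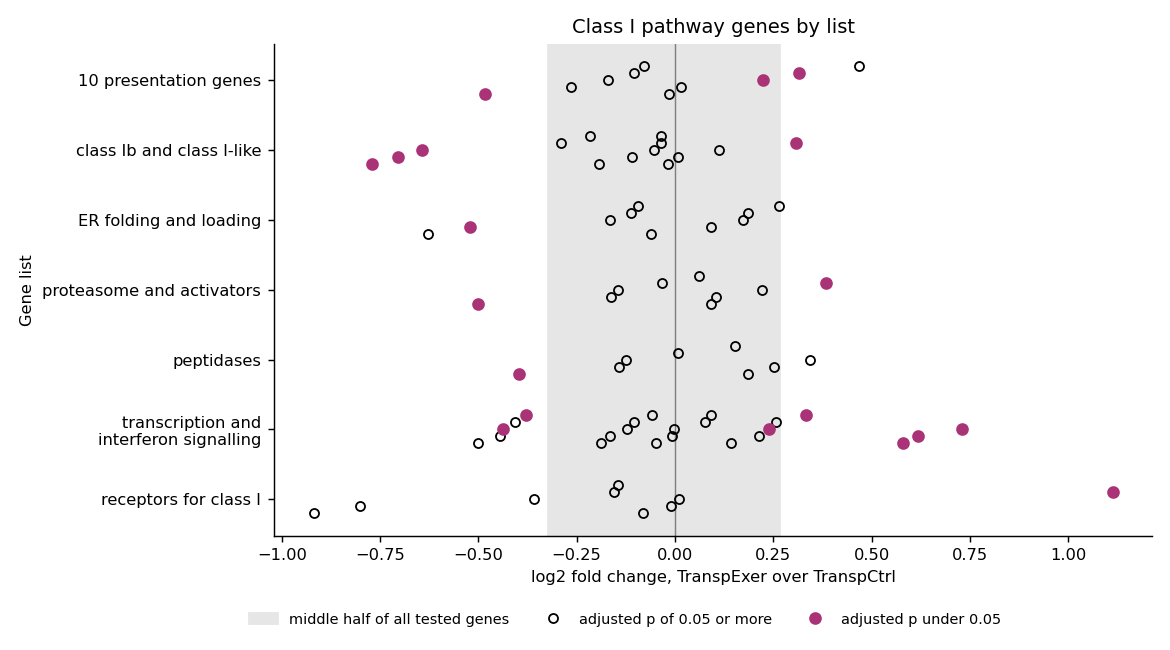
Log2 fold change (TranspExer over TranspCtrl) of every tested gene of the members and of the 6 other lists except *H2-M9*, with filled points for an adjusted p under 0.05 and a gray band for the interquartile range of all tested genes. Filled points of both signs occur, and the one farthest to the right is *Klra3* at 1.11.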

How the data were processed

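RNA-Seq of BM MSCs was analysed in 3 TranspCtrl and 3 TranspExer samples, grouped by the sample labels. The authors deposited an estimated count (expected count) per gene and sample, without normalization, and 10.1% to 12.2% of the values of a sample were not whole numbers. The submitters' processing notes name mm10, and the aligner, the counting tool and the use of strand are not given in the sources used here. The kit was a stranded mRNA kit by the labels and a TruSeq kit by the paper's methods.

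Counts were rounded and tested with edgeR 4.0.16 in R 4.3.3 (filterByExpr, TMM factors of 0.967 to 1.08, quasi-likelihood test, no term but the group), and p-values were adjusted over 15190 genes (Benjamini-Hochberg). TPM were computed from the rounded counts and the gene lengths in the deposited table, and positions and overlaps were read from GENCODE M21. Ratios within samples used a pseudocount of 0.5 and exact permutation of 20 splits. The floor of 3 counts covers counting error only. Sequence and motifs came from RefSeq GRCm38.p6. The edgeR, DESeq2 and permutation tests were checked on simulated data.

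The members and lists were chosen with earlier results of these data known. Named were all members, *Psmb5*, *Psmb6*, *Psmb7*, *Psmb10*, *Psme1*, *Psme2* and *Ciita*, up to 4 genes per list with the smallest adjusted p under 0.05, and the 3 nearest profiles to *H2-K1* and *Nlrc5*, besides those said to be named later. Alternatives were DESeq2 1.42.0, upper-quartile factors, library size only, 2 other filters (none, and at least 1 CPM in 3 samples), the replicate number as a block, a fold of 2 tested in the model and each sample left out.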

Additional observations from a re-analysis of the deposited data

How the results depend on the processing

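In every alternative run, 0 members passed both thresholds. The count of members past the adjusted p-value (3, of which 2 higher and 1 lower) was 1, with 0 higher, under upper-quartile factors, under library size only and with the replicate block, and 1 was higher with no filter or with at least 1 CPM in 3 samples. Leaving out 1 sample gave 0 to 4 members, 0 to 3 higher and 0 to 1 lower, and among the other list genes (17, of which 9 higher and 8 lower) 6 to 31, 2 to 17 higher and 3 to 14 lower, the highest counts without TranspCtrl replicate 1. Each of these runs had 1 sample fewer, and the cause of the changed counts was not tested. Over all genes, calls with 1 sample left out were 1315 to 3417 higher and 1325 to 3041 lower, fewest without a TranspExer sample and most without TranspCtrl replicate 1. They were 2052 higher and 2901 lower under upper-quartile factors and 2013 and 2962 under library size only, against 2523 and 2361. With the replicate block, 2484 genes were higher and 2218 lower. With no filter there were 2575 and 2545 among 28201 tested genes, and with at least 1 CPM in 3 samples 2331 and 2438 among 14022. *Nlrc5* passed in 9 of 12 alternatives, *H2-D1* in 4, *Tap2* in 2 and *Tapbp* in 1. The summed heavy chains differed by 0.136 to 0.237 with 1 sample left out, and passed only without TranspCtrl replicate 1 (0.237). Of the named genes under each alternative, 403 values kept direction and side of the threshold, 86 lost and 6 gained the call, and 32 changed sign, all of genes that passed in neither. These were *H2-K1*, *Phf5a*, *Mrps18b* and *Pepd* at -0.066, -0.077, -0.069 and -0.069 under upper-quartile factors, at -0.074, -0.085, -0.076 and -0.077 under library size only and at -0.012, -0.023, -0.015 and -0.015 with at least 1 CPM in 3 samples, and *Phf5a* at -0.007 with no filter. With 1 sample left out, the range spanned 0 for *H2-K1* (-0.031 to 0.098), *B2m* (-0.054 to 0.017), *Psmb8* (-0.317 to 0.058), *Psmb10* (-0.088 to 0.053), *Psme2* (-0.258 to 0.010), *Phf5a* (-0.039 to 0.098), *Mrps18b* (-0.028 to 0.088) and *Pepd* (-0.039 to 0.078). With 1 sample left out, differences in log2 ratios were 0.262 to 0.317 for *H2-D1* to *H2-K1*, 0.18 to 0.274 for heavy chains to *B2m*, 0.253 to 0.392 for *Tap2* to *Tap1* and -0.091 to -0.022 for the immunoproteasome, which was -0.07 as a ratio of sums. Deviations of same-numbered samples correlated at 0.025, -0.002 and 0.042, so the numbers were not taken to pair samples. Depth was no limit for the members, and precision rests on 3 samples a group.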
